A study of Mus musculus with 12 samples.

Results

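The CC chemokines were followed across both genotypes and all stimuli in bone marrow-derived macrophages (BMDMs), macrophages grown from bone marrow cells in M-CSF. The 10 genes, chosen by name, were Ccl2, Ccl3, Ccl4, Ccl5, Ccl7, Ccl9, Ccl12, Ccl17, Ccl22 and Ccl24. With earlier results of these data known, but no measured value in the rule, they were chosen among 32301 genes or transcripts on the array. They were read by 12 of its 41174 probes, and all 10 passed the filter on dim probes that left 22354 genes in the test. Cells came from wild-type (WT) mice and from Keap1 flox/flox::LysM-Cre (KpCKO) mice of 8 weeks, both on a C57BL6/J background. In KpCKO cells Keap1, the adaptor that keeps the transcription factor Nrf2 low, is deleted by a Cre expressed from the lysozyme M locus, which is active in myeloid cells and not in macrophages alone. Whether the WT mice carried the floxed allele or the Cre is not given in the sources used here. After 7 days with 20 ng per ml M-CSF, cells of each genotype were left untreated (Con), given 5 ng per ml LPS with 10 ng per ml IFNγ for 6 h (M1), or given 10 ng per ml IL-4 for 6 h (M2). There were 2 cultures, each of 1 male (culture 1) or 1 female (culture 2) mouse per genotype, which gave 12 arrays in 6 groups of 2.

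CC chemokines are small secreted proteins, named for a pair of adjacent cysteines, that bind G protein-coupled receptors of the Ccr family and draw leukocytes along a gradient. Macrophages are a major source: Toll-like receptor and interferon signals raise those that call monocytes and T cells into inflamed tissue, and IL-4 raises those that call eosinophils and Th2 cells. The genes lie in groups, with 7 of the 10 members on mouse chromosome 11, Ccl17 and Ccl22 on chromosome 8 and Ccl24 on chromosome 5.

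RefSeq promoter sequences (build GRCm38.p6) were at hand for 5 of the 10 members, Ccl3, Ccl9, Ccl12, Ccl17 and Ccl22. Below are the 250 bases before the transcription start, 5′ to 3′, of the member with the largest M1 difference between the genotypes and of the chromosome 8 pair, which took opposite orders under M1 and IL-4. Capitals mark a match to the core of the antioxidant response element that Nrf2 binds (TGACNNNGC or TGAGNNNGC), to the STAT6 site (TTCNNNNGAA) or to the GAS site (TTCNNNGAA), searched on both strands.
Ccl12 (chr11:82101595-82101844, plus strand): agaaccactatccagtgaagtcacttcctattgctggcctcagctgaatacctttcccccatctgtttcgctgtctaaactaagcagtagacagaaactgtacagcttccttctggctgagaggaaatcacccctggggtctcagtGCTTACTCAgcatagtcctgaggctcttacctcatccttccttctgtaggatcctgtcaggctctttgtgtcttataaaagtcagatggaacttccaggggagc
Ccl17 (chr8:94810203-94810452, plus strand): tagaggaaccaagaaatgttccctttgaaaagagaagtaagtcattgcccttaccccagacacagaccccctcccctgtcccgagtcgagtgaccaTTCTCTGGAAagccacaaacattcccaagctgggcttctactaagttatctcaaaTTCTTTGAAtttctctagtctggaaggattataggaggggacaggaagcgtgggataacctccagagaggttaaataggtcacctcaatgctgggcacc
Ccl22 (chr8:94745434-94745683, plus strand): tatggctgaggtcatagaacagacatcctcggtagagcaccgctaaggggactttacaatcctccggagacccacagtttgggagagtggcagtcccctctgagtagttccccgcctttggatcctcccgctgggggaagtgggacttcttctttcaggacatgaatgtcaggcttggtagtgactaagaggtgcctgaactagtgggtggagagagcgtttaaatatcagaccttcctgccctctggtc
In Ccl12 the antioxidant core lay on the minus strand, 104 to 96 bases before the start, a motif that 23.0% of 32851 promoter windows of the same length hold. In Ccl17 the STAT6 letters lay 154 to 145 bases before the start (5.85% of windows) and the GAS letters 99 to 91 bases before it (7.02%). A match to the NF-κB consensus was found in Ccl9, on the minus strand 35 to 26 bases before the start (7.25% of windows). The interferon-stimulated response element (GAAANNGAAA, 2.98% of windows) was in none of the 5 sequences. These are matches of letters in a short window and no binding was measured here.

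Levels below are log2 signals relative to the 75th percentile of the array, so 0 is the signal of that percentile. Each probe has its own brightness, so a level was compared between samples and not between genes. Arrays of all 4 samples of a stimulus shared 1 slide and 1 scan, so for M1 or M2 against Con the stimulus and the slide cannot be told apart, while the genotypes were compared within a slide. The 75th percentile of the signal was 548 to 906 on M1 arrays and 966 to 1166 on the others, and 59.3% to 71.4% of probes were well above background. On M1 arrays this percentile was 757 and 548 in WT and 906 and 787 in KpCKO, so the genotypes differed in it within that slide. Of 7 macrophage markers, the 6 with a probe were well above background on all arrays. Keap1 was lower in KpCKO under each stimulus, at 1.71 and 1.79 against 3.16 and 3.26 in Con, 2.61 and 3.04 against 4.28 and 4.80 in M1, and 0.94 and 1.37 against 2.85 and 3.07 in M2. In these bulk cultures, fewer producing cells and less RNA per cell cannot be told apart.

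**Figure D1:**
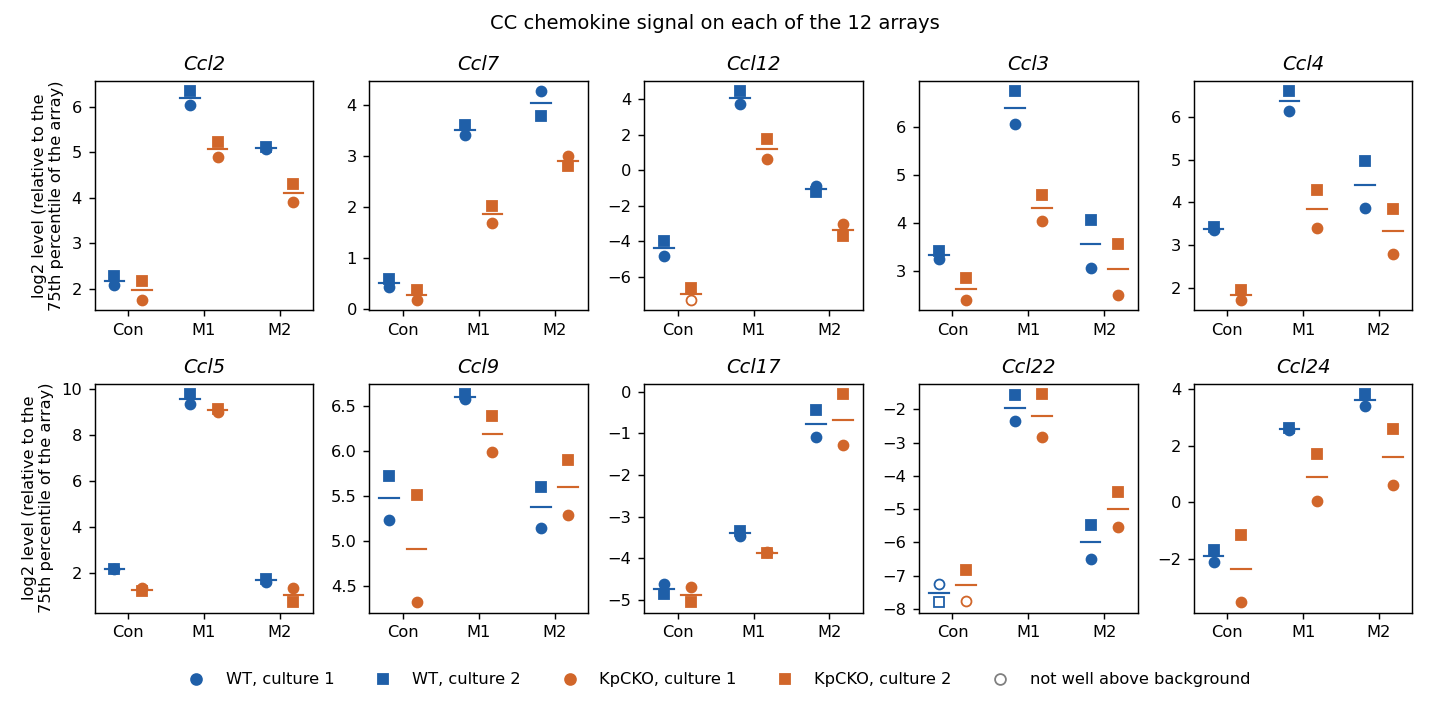
Log2 level of each CC chemokine, relative to the 75th percentile of the array, in untreated (Con), M1 and M2 BMDMs. Circles and squares are the 2 cultures, bars are group means, and open symbols are spots not well above background. Vertical axes differ between genes. Ccl2, Ccl7, Ccl12, Ccl3 and Ccl4 show KpCKO below WT in M1, while Ccl17 and Ccl22 do not separate the genotypes in M2.

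All 10 chemokines rose with LPS and IFNγ in WT BMDMs, and 9 of 10 in KpCKO BMDMs. By limma with Benjamini-Hochberg adjustment over all tested genes, 34.5% of them rose in WT and 24.8% in KpCKO. The median change of the members was 3.53 on the log2 scale in WT and 2.55 in KpCKO, against 0.13 and 0.028 for all tested genes. The T-cell attractant Ccl5 was at 2.16 and 2.18 in WT Con and at 9.34 and 9.77 in WT M1. It rose 167-fold in WT (log2 7.39 ± 0.22 SE, adjusted p = 3.42e-06) and 222-fold in KpCKO (7.79 ± 0.22, adjusted p = 5.25e-06). The M1 arrays lay far above all others for this gene in both genotypes.

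Ccl12, a mouse monocyte chemoattractant that acts on Ccr2, rose further, from −4.82 and −3.98 in WT Con to 3.73 and 4.44 in WT M1. The change was 8.49 ± 0.44 (adjusted p = 1.21e-05) in WT and 8.15 ± 0.44 (adjusted p = 2.57e-05) in KpCKO. In KpCKO Con, culture 1 was not well above background, and under the normexp background correction the KpCKO change was 5.10. That correction was run with an offset of 50 added to each intensity, which makes differences between dim spots smaller. Ccl22, a ligand of Ccr4 on regulatory and Th2 cells, was not well above background on either WT Con array and stood at −2.34 and −1.56 in WT M1. In the main processing this is a rise of at least 31.6-fold, with a fitted change of 5.58 ± 0.40 (adjusted p = 4.2e-05). Under normexp the change was 2.52, so the bound does not hold across processings.

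The monocyte attractants Ccl2 and Ccl7, ligands of Ccr2, rose in WT M1 by 4.0 ± 0.12 (adjusted p = 3.42e-06) and 3.0 ± 0.20 (adjusted p = 3.32e-05). Ccl3 and Ccl4, macrophage inflammatory proteins, rose by 3.06 ± 0.22 and 2.97 ± 0.28. The eosinophil attractant Ccl24, a Ccr3 ligand, rose by 4.49 ± 0.59 (adjusted p = 0.000569). The smallest rises in WT were those of Ccl17, the other Ccr4 ligand, by 1.33 ± 0.37 (adjusted p = 0.0175), and Ccl9, a Ccr1 ligand that macrophages make at rest, by 1.12 ± 0.24 (adjusted p = 0.00519).

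These small rises were the least secure. The Ccl9 change in WT was 0.27 (adjusted p = 0.409) after quantile normalization, a scaling that moved the median over all genes from 0.13 to −0.079, and in KpCKO 0.75 (adjusted p = 0.0547). That of Ccl17 did not pass without WT Con culture 2 (adjusted p = 0.116), WT M1 culture 1 (adjusted p = 0.0718) or WT M1 culture 2 (adjusted p = 0.0596), and in KpCKO it was 1.01 ± 0.37 (adjusted p = 0.0588).

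A subset rose with IL-4. In WT, 6 of 10 members rose (8.63% of all tested genes did), and in KpCKO 7 of 10 (5.69%). Ccl24 was at −2.11 and −1.70 in WT Con and at 3.42 and 3.84 in WT M2, a rise of 46.3-fold (5.53 ± 0.59, adjusted p = 0.00239). Ccl17 went from −4.61 and −4.86 to −1.09 and −0.44, a rise of 15.7-fold (3.97 ± 0.37, adjusted p = 0.0016), and in KpCKO from −4.69 and −5.06 to −1.28 and −0.05 (4.21 ± 0.37, adjusted p = 0.00204). WT M2 arrays lay wholly above WT Con arrays for both genes, as they did for 29.1% of genes.

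The Ccr2 ligands rose with IL-4 too, although the KpCKO rise of Ccl12, 3.60 ± 0.44 (adjusted p = 0.00579), was 1.2 under normexp (adjusted p = 0.116). Ccl7 rose by 3.52 ± 0.20 (adjusted p = 0.00036) in WT, Ccl12 by 3.33 ± 0.44 (adjusted p = 0.00487) and Ccl2 by 2.92 ± 0.12 (adjusted p = 0.000106). Ccl22 rose by 1.55 ± 0.40 (adjusted p = 0.0425), at least 1.94-fold in the main processing, on arrays that lay near background. Under normexp the WT rise was 0.95 (adjusted p = 0.152). In WT its call ended without Con culture 2 (0.77, adjusted p = 0.0769), M2 culture 1 (adjusted p = 0.127) or M2 culture 2 (adjusted p = 0.208). In KpCKO, where 1 of 2 Con arrays was well above background, the Ccl22 rise of 2.28 (adjusted p = 0.0194) was 0.54 under normexp (adjusted p = 0.658) and did not pass when any 1 of the 4 arrays was left out (adjusted p up to 0.114), and the Ccl24 rise of 3.96 (adjusted p = 0.0118) did not pass without Con culture 1 (adjusted p = 0.0635) or M2 culture 2 (adjusted p = 0.0772). Ccl3, Ccl5 and Ccl9 did not pass in either genotype, with differences between −0.50 and 0.68. Ccl4 differed by 1.02 ± 0.28 in WT (adjusted p = 0.0506) and rose by 1.48 ± 0.28 in KpCKO (adjusted p = 0.0239), a call that ended when any 1 of the 4 KpCKO arrays was left out (adjusted p up to 0.141).

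**Figure D2:**
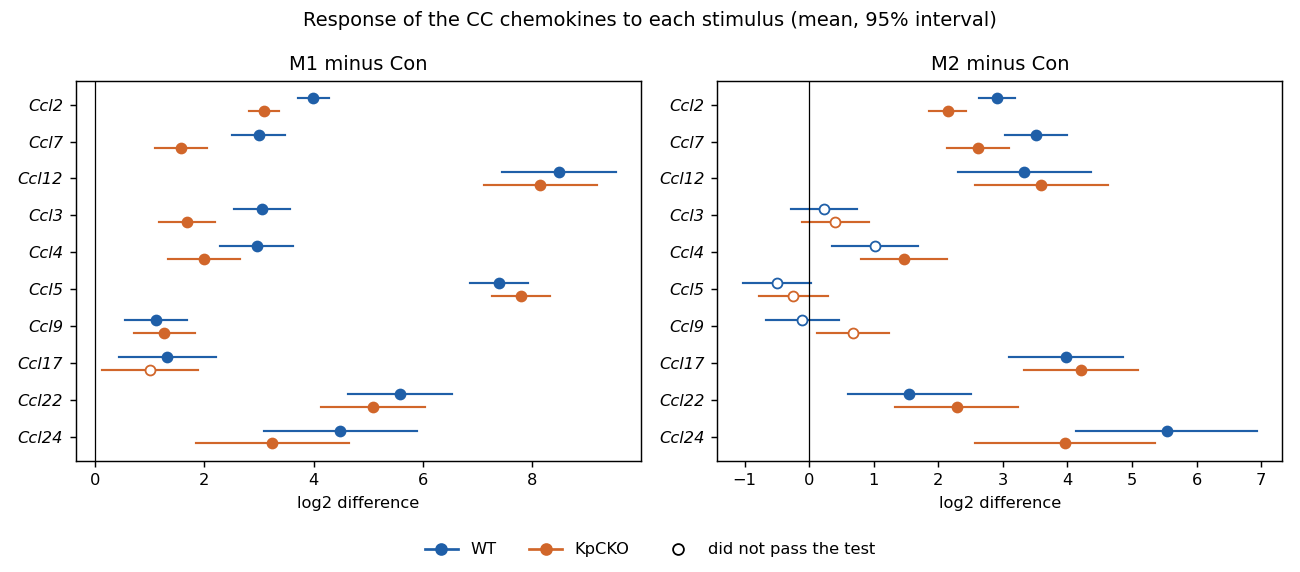
Log2 difference of M1 (left) and M2 (right) from Con for each CC chemokine in WT and KpCKO BMDMs; dots are means of 2 cultures, lines unadjusted 95% intervals of limma's model, open dots did not pass. In M1 all WT dots pass, from 1.12 (Ccl9) to 8.49 (Ccl12), and in M2 the WT dots run from −0.50 (Ccl5) to 5.53 (Ccl24).

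Set against M1, 7 of 10 members were lower in M2 in WT (33.7% of all tested genes were) and Ccl17 was higher (29.3%). Ccl5 was 236-fold lower in M2 than in M1, Ccl12 35.6-fold and Ccl22 16.3-fold. Ccl3, Ccl4, Ccl9 and Ccl2 were 7.10-, 3.85-, 2.34- and 2.12-fold lower. Ccl17 was 6.24-fold higher in M2 (log2 2.64 ± 0.37, adjusted p = 0.00078), so the Ccr4 ligands took opposite orders. Ccl7 (0.52 ± 0.20, adjusted p = 0.0587) and Ccl24 (1.04 ± 0.59, adjusted p = 0.162) did not pass. For each, WT M2 arrays lay wholly above WT M1 arrays, as they did for 36.3% of genes. After quantile normalization, which moved the median over all genes from −0.092 to 0.10, Ccl7 passed, Ccl9 did not (−0.46, adjusted p = 0.177), and the log2 differences of Ccl2 and Ccl4 went from −1.08 to −0.36 and from −1.95 to −1.25. Under normexp those of Ccl22 and Ccl17 went from −4.03 to −1.57 and from 2.64 to 1.75.

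Under M1, KpCKO BMDMs had less Ccl12, Ccl4, Ccl3, Ccl7 and Ccl2 than WT BMDMs. These 5 of 10 members passed and were lower, against 8.59% of all tested genes. The members' median difference was −1.39 on the log2 scale, against −0.087 for all tested genes. KpCKO arrays lay wholly below WT arrays for 9 of 10 members, against 30.3% of genes. Ccl22 was the exception.

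Among the monocyte attractants, Ccl2 was at 6.02 and 6.33 in WT M1 and at 4.89 and 5.22 in KpCKO M1. It was 2.17-fold lower (log2 −1.12 ± 0.12, adjusted p = 0.00303). Ccl7 was at 3.41 and 3.60 in WT M1 and at 1.67 and 2.02 in KpCKO M1, 3.15-fold lower (−1.66 ± 0.20, adjusted p = 0.00513). For Ccl2 and Ccl7 both KpCKO arrays were below both WT arrays, with differences of −1.13 and −1.11 for Ccl2 and −1.73 and −1.58 for Ccl7 in the 2 cultures.

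Ccl12 was at 3.73 and 4.44 in WT M1 and at 0.62 and 1.74 in KpCKO M1. It was 7.49-fold lower (−2.90 ± 0.44, adjusted p = 0.00964). The groups did not overlap, but the call ended without WT M1 culture 2 (adjusted p = 0.0589) or KpCKO M1 culture 1 (adjusted p = 0.0641).

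Of the macrophage inflammatory proteins, Ccl3 was at 6.06 and 6.74 in WT M1 and at 4.05 and 4.59 in KpCKO M1. It was 4.22-fold lower (−2.08 ± 0.22, adjusted p = 0.00301). Ccl4 was at 6.13 and 6.59 against 3.41 and 4.28, 5.71-fold lower (−2.51 ± 0.28, adjusted p = 0.00371). Ccl5 was at 9.34 and 9.77 against 9.0 and 9.14. Its difference was −0.49 ± 0.22 (95% interval −1.02 to 0.04, adjusted p = 0.175), and −0.04 after quantile normalization.

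The rest did not pass. Ccl9 differed by −0.41 ± 0.24 (95% interval −0.97 to 0.15), Ccl17 by −0.46 ± 0.37 (−1.35 to 0.42) and Ccl22 by −0.24 ± 0.40 (−1.19 to 0.72). Ccl24 was at 2.55 and 2.63 in WT M1 and at 0.07 and 1.72 in KpCKO M1, a difference of −1.69 ± 0.59 (adjusted p = 0.0948). The cultures differed in its size, with −2.48 in culture 1 and −0.90 in culture 2, and its second probe gave the same direction in both cultures.

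Quantile normalization kept all 5 lower calls, with differences from −0.83 (Ccl2) to −2.57 (Ccl12). With only the 4 M1 arrays in the limma fit, none of the members passed (adjusted p = 0.159 for all 5), and 0 of 22354 genes did (5261 at an unadjusted p under 0.05).

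The summed level of the macrophage markers was lower in KpCKO under each stimulus. The summed level of the 6 measured markers, in multiples of the 75th percentile of the array, was 665 to 804 in WT M1 and 496 to 563 in KpCKO M1, with 507 to 550 against 375 to 425 in Con and 473 to 524 against 406 to 441 in M2. These markers include Lyz2, the gene of lysozyme M, at whose locus KpCKO cells carry the Cre. A sum of linear levels weighs bright genes most. Any part of the Cre in the sum was not tested. In M1, 5 of these 6 markers were lower in KpCKO and 1 was higher. Of them 3 passed, all lower (8.59% of all tested genes were): Adgre1 (−0.39), Fcgr1 (−1.20) and Itgam (−0.65). None passed in Con or M2. The neutrophil sum, over 9 genes with a probe, was 9.82 to 13 in WT M1 and 6.84 to 13 in KpCKO M1, with Elane and Retnlg not above background on any of these arrays. The dendritic cell sum, over 6 genes, was 1.42 to 2.37 in WT M1 and 1.07 to 1.35 in KpCKO M1. It was not lower in KpCKO elsewhere, at 0.323 to 0.427 in WT Con against 0.430 to 0.467 in KpCKO Con. In M2 it was 0.450 to 0.475 in WT against 0.452 to 0.709 in KpCKO. In the other lists the genotypes' ranges overlapped in M1, at 29.6 to 31.8 in WT M1 against 23.0 to 39.9 in KpCKO M1 for 5 fibroblast genes, 0.326 to 0.622 against 0.335 to 0.629 for 4 eosinophil genes, 0.0770 to 0.0903 against 0.0764 to 0.0912 for 5 mast cell and basophil genes and 0.267 to 0.311 against 0.177 to 0.295 for 5 of 6 lymphocyte genes. Cd3e, the other lymphocyte gene, had no value on 1 WT M1 array and was left out of the sum. The part of these markers in the result was not tested.

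**Figure D3:**
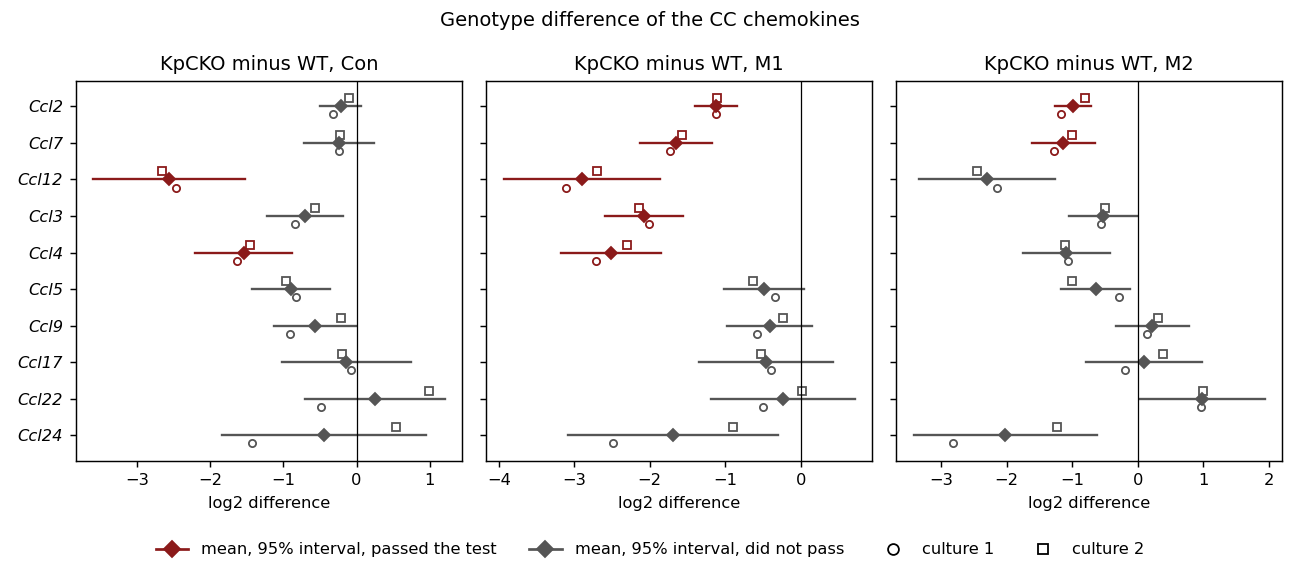
Log2 difference of KpCKO from WT for each CC chemokine in Con, M1 and M2. Diamonds and lines are means and unadjusted 95% intervals, circles and squares the difference in culture 1 and culture 2, and red marks a gene that passed. Red points lie at −2.56 and −1.54 in Con, from −2.90 to −1.12 in M1, and at −1.14 and −0.99 in M2.

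In untreated cells, Ccl12 and Ccl4 were lower in KpCKO, 2 of 10 members against 0.828% of all tested genes. Ccl4 was at 3.37 and 3.42 in WT Con and at 1.73 and 1.96 in KpCKO Con. It was 2.92-fold lower (−1.54 ± 0.28, adjusted p = 0.0463). Ccl12 was at −4.82 and −3.98 in WT Con and at −7.29 and −6.64 in KpCKO Con, where 1 of 2 arrays was well above background, so the fitted difference of −2.56 ± 0.44 (adjusted p = 0.0377) has no exact fold.

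Neither call was firm. Leaving out any 1 of the 4 Con arrays ended both, although fewer of all tested genes were called in those fits too. Under the normexp background correction, whose offset of 50 makes differences between dim spots smaller, the Ccl12 difference was −0.60. KpCKO lay wholly below WT for 5 of 10 members (17.7% of genes did). The Ccl5 difference was −0.89 ± 0.22 (adjusted p = 0.119) and that of Ccl3 −0.70 ± 0.22 (adjusted p = 0.198), both with WT and KpCKO arrays apart.

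With IL-4, Ccl2 and Ccl7 were lower in KpCKO, 2 of 10 members against 0.644% of all tested genes. Ccl2 was at 5.08 and 5.11 in WT M2 and at 3.91 and 4.30 in KpCKO M2, 1.98-fold lower (−0.99 ± 0.12, adjusted p = 0.011). Ccl7 was at 4.26 and 3.79 against 2.98 and 2.79, 2.20-fold lower (−1.14 ± 0.20, adjusted p = 0.0461). KpCKO arrays lay wholly below WT arrays for 6 of 10 members, with Ccl2 and Ccl7 among them, against 16.9% of genes.

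Ccl12 was at −0.89 and −1.25 in WT M2 and at −3.04 and −3.70 in KpCKO M2, which did not overlap, with a difference of −2.30 ± 0.44 (adjusted p = 0.0575). Ccl24 was at 3.42 and 3.84 against 0.61 and 2.61 (−2.02 ± 0.59, adjusted p = 0.185). Ccl17 did not differ beyond its spread (0.10 ± 0.37, 95% interval −0.79 to 0.98). Ccl22 differed by 0.98 ± 0.40 (95% interval 0.03 to 1.94, adjusted p = 0.338), and by −0.34 under the normexp correction. The Ccl2 call ended without WT M2 culture 1 (adjusted p = 0.0861) or without either KpCKO M2 array (0.0943 and 0.0601), and the Ccl7 call without any 1 of the 4 M2 arrays (adjusted p up to 0.222). The second Ccl7 probe gave −1.10 (adjusted p = 0.0578).

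The genotypes' responses themselves were not shown to differ. In the M1 response the test of the difference passed for 0 of 10 members (0.0716% of all tested genes passed), and in the M2 response for 0 (0.00895%). An unadjusted p under 0.05 was reached by 3662 and 450 of the 22354 genes. For Ccl7 the M1 response was 1.42 lower in KpCKO on the log2 scale (−1.42 ± 0.29, adjusted p = 0.127), for Ccl3 −1.37 ± 0.31 (adjusted p = 0.149), and for Ccl2 −0.90 ± 0.17 (adjusted p = 0.113). For Ccl12 it was −0.34 ± 0.62 (95% interval −1.80 to 1.12), 0.031 after quantile normalization and −2.23 under the normexp background correction. The genotype difference in M2 less that in M1 also passed for 0 of 10 (0.0984%). This comparison and that of M2 with M1 were added after the data were seen. The M1 and M2 comparisons share their Con arrays.

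Of 11 other CC chemokines, 6 could be tested. Ccl8, a monocyte chemoattractant related to Ccl2, was lower in KpCKO in Con (−2.04 ± 0.25, adjusted p = 0.0119), M1 (−1.66 ± 0.25, adjusted p = 0.00951) and M2 (−2.27 ± 0.25, adjusted p = 0.00831). None of the other 5 passed in a genotype comparison. With M1 in WT, 3 rose and 3 fell, where 34.5% of all tested genes rose and 14129 of 22354 passed in either direction. Ccl8 rose by 4.97, Ccl20, the Ccr6 ligand, by 3.0 and Ccl19, a Ccr7 ligand, by 1.34, while Ccl27a fell by 1.18 and Ccl6 by 0.90.

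Of 14 receptor genes, 9 could be tested, and 6 rose and 1 fell in WT M1, where 34.5% of all tested genes rose. In KpCKO M1, Ccrl2, an atypical receptor, was lower (−1.03 ± 0.23, adjusted p = 0.0317), and no receptor was higher. No receptor passed between the genotypes in Con or M2. Of 33 receptors, adaptors and transcription factors of LPS, interferon and IL-4 signalling, 32 could be tested. Of these, 22 rose and 6 fell in WT M1, and 7 rose and 3 fell in WT M2, where 8.63% of all tested genes rose. Irf4, an IL-4-responsive factor, rose by 5.60 ± 1.08 in WT M2 (adjusted p = 0.0165). The LPS co-receptor Cd14 was lower in KpCKO in Con (−1.19), M1 (−1.33) and M2 (−0.86). The median genotype difference of this list was −0.29 in M1, against −0.087 for all tested genes. It was already −0.27 in Con, against 0.0016, and was −0.14 in M2, against 0.019. In M1, 9 of the list were lower, against 8.59% of all tested genes, and 0 higher. The 9 were Cd14, Irf7 (−1.90), Rel (−1.69), Myd88 (−0.74), Nfkb2 (−0.65), Nfe2l2, the gene of Nrf2 (−0.62), Stat3 (−0.60), Irf8 (−0.54) and Ticam1 (−0.42). Of 5 genes of proteins that act on cytokine mRNA decay, Zfp36l1 (−1.39), Zc3h12a (−0.65) and Zfp36 (−0.57) were lower in M1, and Zfp36l1 also in Con (−1.37, adjusted p = 0.0333).

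Over the 12 arrays, which share slides within a stimulus, the tested gene most like Ccl2 was Slc7a2 (Pearson r = 0.987), and then Adam9 (0.985). For Ccl7 these were Fcgr3 (0.982) and Fcgr2b (0.973), for Ccl12 Diaph2 (0.987) and Itgav (0.986), for Ccl17 Rnase2a (0.984) and Idh3a (0.976), and for Ccl22 Psmb1 (0.984) and Psmb10 (0.983). Named genes close to the others were Ap4s1 (0.976) and Hnrnpm (0.975) for Ccl4, Gpalpp1 (0.987) for Ccl3, Cfb (0.997) for Ccl5, Trim69 (0.963) for Ccl9 and Gda (0.954) for Ccl24. Among the members, Ccl7 and Ccl24 ran at r = 0.942 and Ccl3 and Ccl4 at 0.926, while Ccl17 and Ccl5 ran at −0.273. These are descriptions over arrays set mainly by stimulus.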

How the data were processed

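RNA of WT and KpCKO BMDMs was measured on 1-colour Agilent mouse arrays. Per the file headers, the authors used Feature Extraction 10.7.3.1 and deposited background-subtracted intensities of each spot, with no scaling between arrays. A second table that the authors deposited holds log2 values, which equal these intensities relative to the 75th percentile and centred on each probe. Control and outlier spots were left out, spots of a probe averaged, and log2 intensities set relative to the array's 75th percentile. Of 41174 probes, 26690 were named by accession from a RefSeq gene table, and each gene was read from its brightest probe. The filter asked for a signal well above background in both cultures of 1 group or more, and 22354 genes were tested in limma 3.58.1 (R 4.3.3) with 6 groups and culture, 5 residual and 1.92 prior degrees of freedom, and a Benjamini-Hochberg adjusted p under 0.05. The statistics were tested on simulated data whose noise was independent between arrays. Such data cannot test the effect of arrays sharing a mouse or slide. For Ccl22 in WT Con, not above background, a fold is a lower bound within the main processing and leaves out the spread between arrays. It was computed against the higher of the spot's signal and the lowest signal well above background on that array. The number of arrays limits the precision. The limma p-values rest on the spread left after group and culture are fitted, with the arrays of a mouse treated as independent.

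The pairing by culture comes from the series description. Deviations from group means over 22084 genes correlated between groups of the same culture at r = 0.162 to 0.597 in 15 pairs. The members and the lists were chosen with earlier results of these data known. Named are the 10 members, Keap1, genes of the other lists that passed between genotypes or changed most with a stimulus, and the genes most like each member. Alternatives in processing were quantile normalization, normexp on median intensities with an offset of 50, the authors' matrix, filters and probe choice. Others were models without culture, with mouse as a random block or with the compared arrays alone, an unpaired t-test, and leaving out each array. For 1 receptor gene the result is not reported here. Tables and plots used Python 3.11.15, pandas 2.3.3 and matplotlib 3.10.9.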

Additional observations from a re-analysis of the deposited data

How the results depend on the processing

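The direction of every called difference was the same under all alternatives run. Leaving out the replicate block or the filter, or using the compared arrays alone, does not change the estimates of these genes. Those settings could therefore not turn a direction. With no replicate block, 0 members passed between the genotypes in Con and 0 in M2, 4 in the M2 response of KpCKO and 5, as with it, in KpCKO M1. Over all 22354 genes the counts fell too, from 494 to 192, 431 to 193, 2290 to 895 and 3580 to 1192. With the arrays of the compared groups alone, which leaves fewer samples, 0 passed between the genotypes in Con, M1 or M2 and 0 in the M2 response of KpCKO. Of all genes, limma called 0, 0, 0 and 1 in these fits, with 3445, 5261, 3635 and 6379 at an unadjusted p under 0.05. The normexp correction left 0 in Con and 0 in M2 (170 and 225 of all genes). Without a filter on dim probes 0 passed in Con and 1 in M2, and with the mean of a gene's probes 1 in M2. With the filter on all arrays 1 passed in Con. That filter left Ccl12 out of the test, since it was not well above background in KpCKO Con culture 1. The cause of the other changes was not tested. Leaving out 1 array leaves a group with 1 array. For each call above that ended in this way, fewer of all tested genes passed in the same fit too.

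An unpaired t-test, which the paper's methods name for BMDM assays, was also run on the arrays here. For its array calls the paper used a fold change in independent mice or cultures instead. Benjamini-Hochberg adjusted, the t-test called 6 members in the M1 response of WT (2934 of 22227 genes) and 2 in M2 against M1 (2685 of 22231). It called 0 in the M1 response of KpCKO, both M2 responses and all 3 genotype comparisons. There it called 0 of all genes except 2 in the M2 response of WT. At its unadjusted threshold it called 4 in the M2 response of KpCKO (2554 of 22195 genes) and 6, all lower, in KpCKO M1 (2729 of 22196 in either direction).

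Some uncalled differences turned direction. With normexp these were Ccl17 in Con (0.034), Ccl22 in M2 (−0.34), and the genotype difference in the M2 response of Ccl12 (−1.28) and Ccl22 (−0.42), and with quantile normalization that in the M1 response of Ccl12 (0.031). Leaving out 1 array moved Ccl3 in the M2 response of WT between −0.056 and 0.51 and Ccl5 in that of KpCKO between −0.61 and 0.12. Between the genotypes in Con, Ccl17 ran from −0.50 to 0.22, Ccl22 from −0.53 to 1.03 and Ccl24 from −1.18 to 0.29. In M1 Ccl22 ran from −0.56 to 0.087, and in M2 Ccl17 from −0.50 to 0.70. For the genotype difference in the M1 response, Ccl9 ran from −0.24 to 0.55, Ccl12 from −0.78 to 0.10, Ccl17 from −0.68 to 0.038 and Ccl22 from −1.27 to 0.29. For that in the M2 response, Ccl3 ran from −0.11 to 0.46, Ccl5 from −0.12 to 0.62, Ccl12 from −0.36 to 0.89, Ccl17 from −0.36 to 0.84 and Ccl22 from −0.045 to 1.51.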
